A study of Mus musculus with 18 samples.

Results

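The genes described here encode 34 proteins of the lysosome, the acidic organelle in which a cell digests proteins, sugars and lipids. They were taken by symbol from the 19057 gene symbols of a liver RNA sequencing table, and all 34 were found there. By role they comprise 11 proteases, 11 glycosidases, 2 sulfatases, 5 proteins that handle lipids and 5 proteins of the lysosomal membrane. All 34 passed the filter on low values (at least 1 RPKM in at least 3 libraries).

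The livers came from male ICR mice of 10 weeks, an outbred stock, with 3 mice in each of 6 groups. Con mice had a regular diet and saline. STZ mice received a single injection of streptozotocin, a toxin of the insulin-producing beta cell that leaves mice with type 1 diabetes. A10-FMT mice received streptozotocin and then, by mouth, gut microbiota from donors given alginate oligosaccharide (AOS) at 10 mg/kg, and Con-FMT mice received streptozotocin and microbiota from control donors. AOS mice were labelled with AOS at 10 mg/kg, and STZ+AOS mice with streptozotocin and AOS at 10 mg/kg. The donor microbiota were pooled, so the 3 mice of a transplant group share their inoculum, and whole liver was sequenced. In such bulk samples fewer cells of a type and less RNA per cell cannot be told apart.

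Lysosomal enzymes are made in the endoplasmic reticulum, tagged with mannose 6-phosphate and carried to an organelle that a proton pump, the V-ATPase, keeps acidic. Cathepsins cut proteins, glycosidases and sulfatases take sugar chains apart from their ends, and lipid-handling proteins release cholesterol and sphingolipid parts for reuse. Many of these genes are targets of TFEB, a transcription factor that enters the nucleus when mTORC1 at the lysosome is inactive and that binds an E-box in their promoters (the CLEAR element). In the liver, lysosomes serve autophagy and lipid turnover, and Kupffer cells, the resident macrophages, are rich in them.

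The promoters are shown first, because the E-box is a feature that members can share. Members were taken by symbol and not by motif. Since many are known TFEB targets, a share of the E-box above that of all genes is not a finding about these data. RefSeq promoter windows (GRCm38.p6, 250 bases before to 50 after a start site) were at hand for 30 of 34 members, with none used here for Ctsb, Ctsh, Npc1 and Asah1. The letters CACGTG were searched on both strands, as was TCACGTG, which contains them and reads CACGTGA on the other strand. TCACGTG was found for 9 of 30 members (30%) and in the windows of 4.29% of 27025 genes, and CACGTG for 11 members (36.7%) against 8.09% of genes. The stretches below run 5′ to 3′ on the strand of the gene, with the match in capitals.
Gaa: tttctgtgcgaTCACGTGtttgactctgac
Mcoln1: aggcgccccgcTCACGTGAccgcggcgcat
Ctsd: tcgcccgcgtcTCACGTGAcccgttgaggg
Ctsf: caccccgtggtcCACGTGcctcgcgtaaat
Glb1: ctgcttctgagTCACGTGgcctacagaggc
Naglu: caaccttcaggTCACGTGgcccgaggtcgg
Sgsh: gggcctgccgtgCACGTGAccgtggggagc
The Gaa, Mcoln1, Ctsd and Ctsf stretches belong to members called higher after streptozotocin (Mcoln1 at the edge of the threshold), and the Glb1, Naglu and Sgsh stretches to members that were not called, as described below. The first capital C of the match began 140 bases before the start site in Gaa, 45 in Mcoln1, 98 in Ctsd, 79 in Ctsf, 48 in Glb1, 73 in Naglu and 29 in Sgsh. These distances are from the RefSeq start sites. The start sites used for Ctsd, Naglu and Mcoln1 lie 211, 82 and 62 bases inside the GENCODE gene. By that annotation the matches printed for them fall within the gene. The Sgsh start site lies 26 bases inside the GENCODE gene, and the match printed for it spans the GENCODE gene start. Ctsd and Mcoln1 each held another match of TCACGTG, not printed above and further from the start site. That match lay before the GENCODE gene start in both genes. The other members with TCACGTG were Ctsa, Gla and Lamp1. The Ctsa matches were in the window of a second start site, 900 bases inside the GENCODE gene, and the window at its GENCODE gene start held none. CACGTG alone was also found for Ctsl, in a window whose start site is 370 bases inside the GENCODE gene, so the window does not lie before the annotated gene start.

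Lamp1, the most abundant member in Con livers and not called in any comparison, held 4 matches of TCACGTG before its start site (chr8:13158911-13159160, plus strand, GRCm38.p6):
Lamp1: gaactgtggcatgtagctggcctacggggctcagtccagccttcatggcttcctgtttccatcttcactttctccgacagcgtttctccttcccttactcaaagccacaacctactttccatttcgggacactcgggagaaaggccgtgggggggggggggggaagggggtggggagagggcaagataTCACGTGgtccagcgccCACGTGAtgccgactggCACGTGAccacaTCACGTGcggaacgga
Psap, which rose in every comparison of a streptozotocin group with its control, held none in the window of its first start site (chr10:60277378-60277627, plus strand):
Psap: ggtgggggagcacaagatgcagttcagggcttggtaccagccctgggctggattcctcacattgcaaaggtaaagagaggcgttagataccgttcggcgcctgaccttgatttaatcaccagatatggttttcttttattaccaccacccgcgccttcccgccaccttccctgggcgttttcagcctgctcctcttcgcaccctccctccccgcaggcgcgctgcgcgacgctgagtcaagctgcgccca
Of the 9 members with TCACGTG, 3 rose in STZ against Con, and of the 21 without it, 11 did. For the shorter CACGTG, 5 of the 11 members with it rose and 9 of the 19 without it. These are descriptions of letters in a window and were not tested.

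Values are RPKM, which correct the reads of a gene for its length and for the size of the library, and so can be compared between genes. In Con livers the members ranged from Galc at 1.41 ± 0.062 RPKM (SD, n = 3) to Lamp1 at 277 ± 7.52. Summed over the members, Con livers reached 2031 ± 58.3 RPKM and AOS livers 2289.9 ± 61. The sum was 3117 ± 634 in STZ, 2598 ± 189 in A10-FMT, 2695 ± 221 in Con-FMT and 3919 ± 964 in STZ+AOS. Con and AOS mice were thus the lowest. A single gene, Ctsl, weighed heavily in these sums. Its mean was 242 ± 6.3 RPKM in Con, 307 ± 51 in AOS, 772 ± 419 in STZ and 1619 ± 1030 in STZ+AOS. In STZ+AOS mouse 3 it gave 2734 of 4984 RPKM.

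Differences are on the log2(RPKM + 1) scale and were tested with limma, and each adjusted p (Benjamini-Hochberg) takes account of every gene tested. Called means that this p fell under 0.05. The deposited values themselves shifted between groups: the sum of RPKM over all genes was 749560 to 806940 in Con and 631130 to 684660 in STZ, and the median of all 10602 tested genes was 0.21 higher in STZ than in Con. Every change below stands on top of that shift. Values rescaled by the median ratio between libraries, which brought the median of all genes to -0.01, are given beside the main ones where calls depend on it.

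In STZ livers 18 of 34 members were higher than in Con and none was called lower (52.9% of members, against 38.5% of all genes called, 33% higher and 5.52% lower). The median change of the members was 0.39, and 22 of 34 lay above the median of all genes. The lipid-handling proteins gave the largest share, with 4 of 5 higher, followed by 6 of 11 proteases and 6 of 11 glycosidases, while 2 of 5 membrane proteins and 0 of 2 sulfatases were called. The groups of 3 mice did not overlap for 18 members above and 1 below, beside 40.8% of all genes above and 47.7% in either direction.

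Under median-ratio scaling 8 members were called (23.5%, against 27.3% of all genes, 14% higher and 13.3% lower). Those higher were Npc1, Psap, Ctsl, Ctsf, Gaa and Ctsd, and those lower were Glb1 and Arsb. Of the calls over all genes, 85.7% were higher on the deposited scale and 51.4% after rescaling. Npc1, Psap, Ctsl, Ctsf and Gaa were called higher in all 22 alternative fits, and Ctsd in 21 of them. The exception for Ctsd was quantile normalization (adjusted p = 0.062). The other 12 members called on the deposited scale kept positive estimates after median-ratio scaling but were not called, from Scarb2 and Mcoln1 at 0.09 and 0.07 to Idua at 0.37 (adjusted p = 0.07), which was close to Ctsd at 0.38 (adjusted p = 0.0453).

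**Figure D1:**
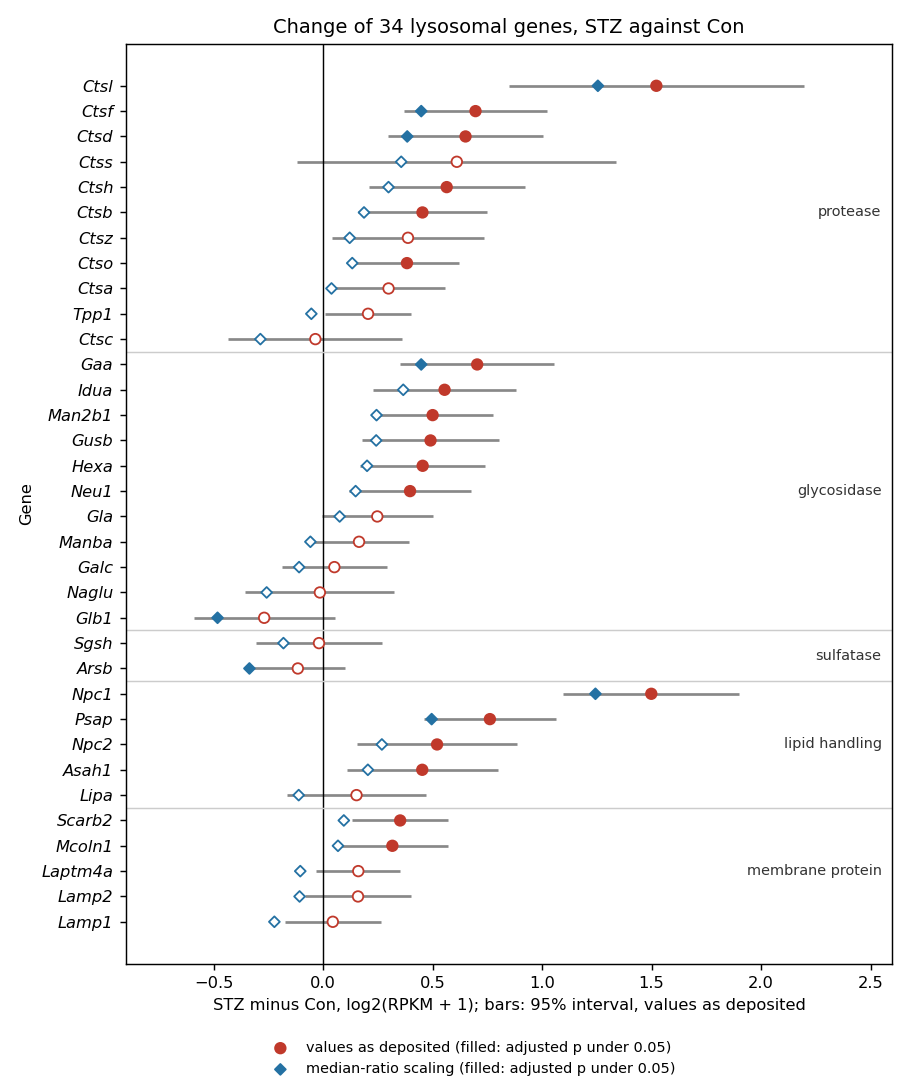
Change of each of the 34 genes in STZ against Con on the log2(RPKM + 1) scale, ordered by role. Red circles show deposited values with 95% intervals and blue diamonds show median-ratio scaling, filled where the adjusted p was under 0.05. Npc1 and Ctsl lie furthest to the right at 1.5 and 1.52, and the blue diamonds lie to the left of the red circles throughout.

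Npc1, the membrane protein that moves cholesterol out of the lysosome, was the member with the smallest adjusted p. Its level was 12.5, 18 and 15.4 RPKM in the Con mice and 56.9, 42.5 and 36.6 RPKM in the STZ mice. All STZ mice lay above all Con mice, a difference of 1.5 (SE 0.184, adjusted p = 0.000471), or 2.83-fold. The gene overlaps Rmc1, whose mean was 6.92 RPKM in Con and 8.76 in STZ.

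Psap, the precursor of the saposins that help sphingolipid hydrolases reach their lipids, was 123, 116 and 124 RPKM in Con and 229.6, 214 and 177 RPKM in STZ. The groups did not overlap, and the difference was 0.76 (SE 0.137, adjusted p = 0.00233). Npc2, which hands cholesterol to Npc1, rose by 0.52 (adjusted p = 0.0302), and Asah1, the acid ceramidase, by 0.45 (adjusted p = 0.0412), with mice that overlapped and a call in 9 of 22 alternative fits. Neither of these was called after median-ratio scaling. Lipa, the acid lipase that hydrolyses cholesteryl esters and triglycerides, was 58.5, 79.8 and 65.9 RPKM in Con and 65.3, 83.4 and 78.1 RPKM in STZ, so its groups overlapped (adjusted p = 0.424).

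Among the proteases Ctsl, a cysteine protease that degrades proteins delivered to the lysosome, had the largest change. It was 235, 248 and 244 RPKM in Con and 681, 1229 and 406 RPKM in STZ. The Con mice lay close together while the STZ mice were spread widely, all of them above Con, and the difference was 1.52 (SE 0.307, adjusted p = 0.0038).

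Ctsd, the main aspartic protease of the lysosome, was 139, 144 and 145 RPKM in Con and 258, 254 and 173 RPKM in STZ. STZ mouse 3 was nearer to the Con mice than to the other STZ mice, and the difference was 0.65 (SE 0.161, adjusted p = 0.00967). Ctsf, another cysteine protease, was 9.44, 10.2 and 10.9 RPKM in Con and 18.8, 18.3 and 14.5 RPKM in STZ, and rose by 0.70 (adjusted p = 0.005). Ctsh, an aminopeptidase, was 93.8, 129 and 115 RPKM in Con and 178, 197 and 129.7 RPKM in STZ, so the lowest STZ mouse and the highest Con mouse were almost level (0.56, adjusted p = 0.0196).

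Ctso, a less studied cysteine protease, was 11.2, 13.4 and 12.8 RPKM in Con and 19.3, 15.8 and 14.7 RPKM in STZ (0.38, adjusted p = 0.018). Ctsb, an abundant cysteine protease, was 273, 258 and 288 RPKM in Con and 436, 369 and 325 RPKM in STZ (0.45, adjusted p = 0.022). Both sets of mice stood apart, yet neither gene was called after rescaling. Ctsc, which activates serine proteases of leukocytes, was 18.5, 13.8 and 14.2 RPKM in Con and 14.6, 12 and 19.2 RPKM in STZ, a difference of -0.04 (adjusted p = 0.894). Ctsz, an exopeptidase, was 151, 132 and 145 RPKM in Con and 187, 239.7 and 146 RPKM in STZ (adjusted p = 0.0718), and the remaining proteases Ctsa, Ctss and Tpp1 had changes of 0.21 to 0.61 that were not called.

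Gaa, the acid alpha-glucosidase that breaks down glycogen in the lysosome, led the glycosidases. It was 15.2, 19.2 and 18.4 RPKM in Con and 33.9, 30.3 and 24.2 RPKM in STZ, with no overlap (0.70, SE 0.16, adjusted p = 0.00667). Man2b1, the lysosomal alpha-mannosidase, was 17.1, 20.9 and 19.3 RPKM in Con and 29.4, 30.2 and 23.1 RPKM in STZ (0.50, adjusted p = 0.0103). Hexa, a subunit of hexosaminidase, was 15.3, 15.4 and 16.9 RPKM in Con and 25.2, 21.6 and 19.7 RPKM in STZ (0.45, adjusted p = 0.0187). In each of these genes STZ mouse 3 was the lowest of its group and still above every Con mouse.

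Idua, the alpha-iduronidase of glycosaminoglycan breakdown, was scarce, at 2.05, 1.54 and 1.86 RPKM in Con and 3.77, 3.69 and 2.14 RPKM in STZ (0.55, adjusted p = 0.0143). STZ mice 1 and 2 carried this difference. Idua overlaps Slc26a1, which was far more abundant at a mean of 47.7 RPKM in Con and 46.4 in STZ. Neu1, the sialidase, was 10.4, 11.4 and 11.9 RPKM in Con and 15.2, 18.3 and 12.3 RPKM in STZ (0.40, adjusted p = 0.0307), and Gusb, the beta-glucuronidase, rose by 0.49 (adjusted p = 0.02).

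Naglu and Sgsh, a glycosidase and a sulfatase of the same heparan sulfate pathway, had the largest adjusted p. Naglu was 7.99, 10.4 and 11.1 RPKM in Con and 11.8, 9.68 and 7.79 RPKM in STZ, and Sgsh was 1.79, 1.36 and 1.5 RPKM in Con and 1.36, 1.29 and 1.93 RPKM in STZ. Both sets of mice were intermixed (adjusted p = 0.95 for Naglu and 0.923 for Sgsh). The 95% interval for Naglu ran from -0.35 to 0.33. Glb1, the beta-galactosidase, was the member with the lowest estimate, at -0.27 (adjusted p = 0.166) on the deposited scale and -0.48 (adjusted p = 0.0421) after median-ratio scaling. Arsb, a sulfatase of dermatan and chondroitin sulfate, went from -0.12 (adjusted p = 0.366) to -0.34 (adjusted p = 0.0433) in the same way. The uncalled glycosidases Gla, Manba and Galc had estimates of 0.25, 0.16 and 0.05.

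Among the membrane proteins 2 of 5 were called. Scarb2, the receptor that carries beta-glucocerebrosidase to the lysosome, was 22.5, 20.8 and 22.1 RPKM in Con and 25.0, 29.6 and 29.9 RPKM in STZ (0.35, adjusted p = 0.0187). Mcoln1, a calcium channel of the lysosomal membrane, was just inside the threshold (0.32, adjusted p = 0.0493), with STZ mouse 3 level with the highest Con mouse at 13.1 RPKM, and it was called in 5 of 22 alternative fits. Lamp1 and Lamp2, the glycoproteins that line the membrane and are used as measures of lysosome number, differed by 0.04 (95% interval -0.18 to 0.26, adjusted p = 0.75) and 0.16 (-0.08 to 0.40, adjusted p = 0.267). Lamp1 stood at 277 ± 7.52 RPKM in Con and 286 ± 17 in STZ. The estimates of Lamp1, Lamp2 and Laptm4a turned negative after each of 3 rescalings.

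**Figure D2:**
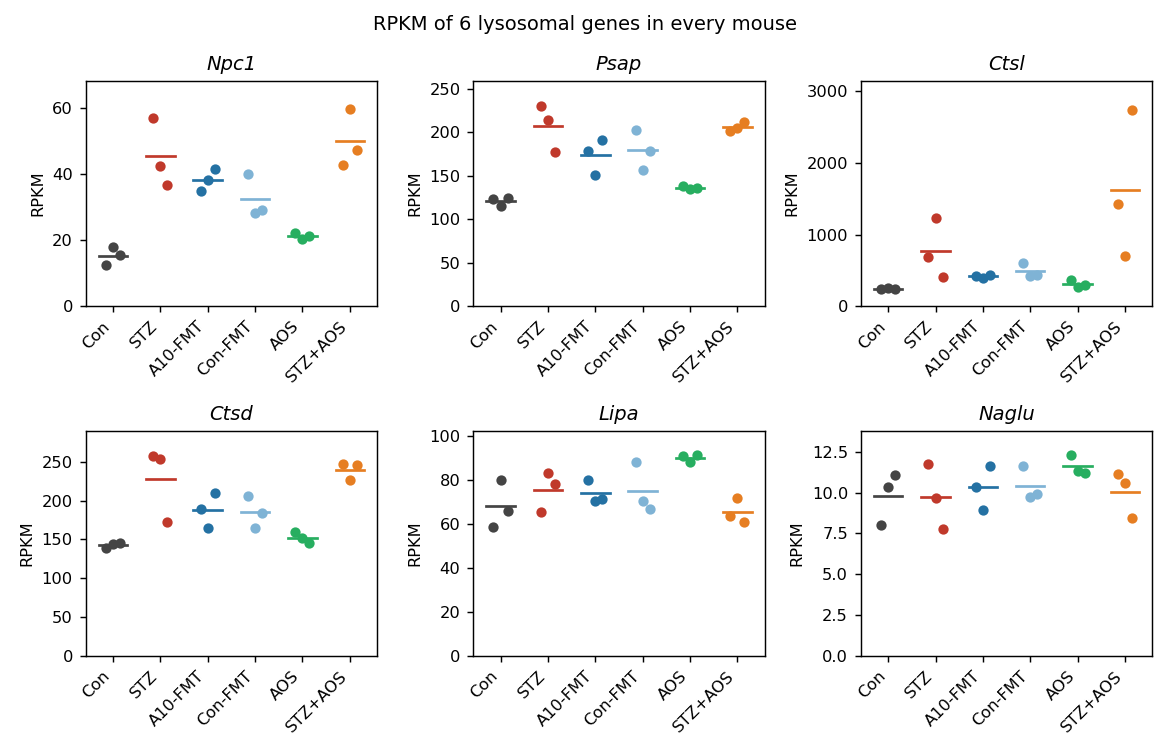
RPKM of 6 lysosomal genes in every mouse of the 6 groups (points), with the group mean as a line and the axis starting at 0. For Npc1, Psap, Ctsl and Ctsd the STZ and STZ+AOS mice lie above the Con and AOS mice, Lipa is lower in STZ+AOS than in AOS, and Naglu mixes all groups.

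Over the 34 genes, the mean difference from Con was 0.39 ± 0.15 (SD, n = 3) in STZ, 0.27 ± 0.12 in A10-FMT, 0.29 ± 0.064 in Con-FMT, 0.15 ± 0.023 in AOS and 0.41 ± 0.0057 in STZ+AOS. STZ mouse 3 stood apart from its group, at 0.22 against 0.46 and 0.50, and lay among the transplanted mice, which ranged from 0.13 to 0.36. The mean of all tested genes was also above Con, at 0.16 to 0.25 in the STZ mice, and the members exceeded it by 0.22, 0.25 and 0.06 in STZ mice 1, 2 and 3. Without STZ mouse 3 the number of members called in STZ against Con was 21 (61.8%, beside 47.4% of all genes), and without STZ mouse 1 it was 9 (26.5%, beside 30.2% of all genes).

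**Figure D3:**
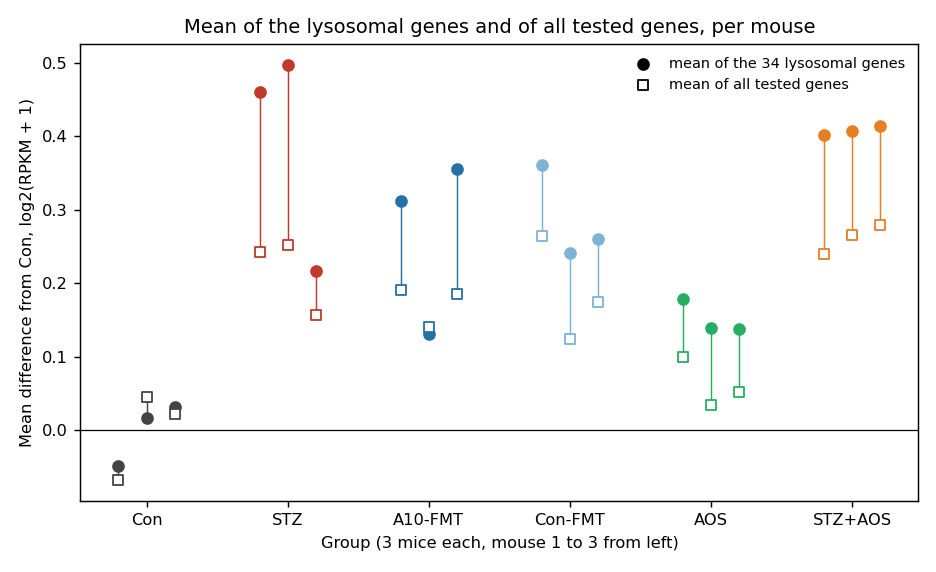
Mean over the 34 genes (filled circles) and over all tested genes (open squares) of the difference from the Con mean, in log2(RPKM + 1), for each mouse. The STZ+AOS mice and STZ mice 1 and 2 lie highest, the circles mostly lie above the squares, STZ mouse 3 lies at 0.22, and A10-FMT mouse 2 lies at 0.13, below the AOS mice.

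The transplanted groups were then compared with Con and with STZ. In A10-FMT against Con 5 members were higher and none lower, beside 18.4% of all genes called, 15.9% higher and 2.47% lower. They were Npc1 (1.28, adjusted p = 0.00217), Ctso (0.49), Psap (0.51), Hexa (0.44) and Gaa (0.54). In Con-FMT against Con 10 members were higher and none lower, beside 19.4% of all genes, 17.5% higher and 1.89% lower. Npc1 was again first (1.03, adjusted p = 0.00677), with Ctso, Psap, Ctsb, Hexa, Man2b1, Neu1, Scarb2, Ctsl and Ctsf. After median-ratio scaling Npc1 was the only member called in A10-FMT (1.09, adjusted p = 0.00195), and Npc1 (0.82, adjusted p = 0.0108) and Ctso (0.36, adjusted p = 0.0375) were called in Con-FMT. These were 2.94% and 5.88% of the members. Of all 10602 genes, 1164 were then called in A10-FMT (641 higher and 523 lower) and 874 in Con-FMT (488 higher and 386 lower). The mice did not overlap for 18 members above Con in A10-FMT (41.7% of all genes above, 48.9% in either direction) and for 19 in Con-FMT (40.7% above, 45.9% in either direction). These comparisons share their Con mice with each other and with STZ against Con.

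Npc1 was 35.0, 38.3 and 41.6 RPKM in A10-FMT and 40, 28.1 and 29.1 RPKM in Con-FMT, all above the highest Con mouse. Ctsl was 421, 391.7 and 439 RPKM in A10-FMT and 602, 421 and 430.5 RPKM in Con-FMT, between the Con mice and the upper 2 STZ mice. Idua was 1.60, 1.71 and 1.56 RPKM in A10-FMT and 2.06, 1.65 and 1.79 RPKM in Con-FMT, so every transplanted mouse was below every STZ mouse, and both groups overlapped or lay beside the Con mice.

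Neither transplant group had a member called against STZ. In A10-FMT against STZ the count was 0 of 34 by limma (0.226% of all genes, 0.066% higher and 0.16% lower), with 3 at an unadjusted p under 0.05, beside 2212 of all 10602 genes. Idua had the smallest adjusted p (-0.65, SE 0.149, adjusted p = 0.0685). In Con-FMT against STZ the count was also 0 (0.00943% of all genes), with 3 at an unadjusted p under 0.05, beside 2131 of all 10602 genes. Idua was again first (-0.54, adjusted p = 0.103). No member lay above STZ without overlap in either group and 2 lay below in each, beside 7.61% of all genes above and 21.5% in either direction for A10-FMT and 8.32% and 17.7% for Con-FMT. The counts of calls depended on STZ mouse 3. Without it 3 members were lower in A10-FMT than in STZ (Idua by -0.85, Ctsl by -1.13 and Ctsd by -0.45), or 8.82% beside 12.7% of all genes called and 8.91% lower. In Con-FMT 5 were lower, namely the same 3 with Asah1 and Npc2, or 14.7% beside 15.5% of all genes called and 9.84% lower.

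A10-FMT and Con-FMT did not differ in any member or in any gene (0 of 34 members and 0% of all genes by limma, with 0 members and 303 of all 10602 genes at an unadjusted p under 0.05). The mice overlapped for every member, beside 8.92% of all genes without overlap and 2.94% above. The estimates of the 34 genes lay between -0.20 and 0.25. For Npc1, the largest of them, the 95% interval of the difference ran from -0.15 to 0.65.

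AOS alone gave no called member against Con (0 of 34, 0.00924% of all genes, with 7 members and 781 of all 10822 genes at an unadjusted p under 0.05). The groups nevertheless did not overlap for 16 members above Con and 1 below, beside 19.1% of all genes above and 24.4% in either direction. Lipa was 90.8, 88.2 and 91.4 RPKM in AOS, above each Con mouse and with a spread of 1.71 RPKM (SD), and had the smallest adjusted p (0.41, adjusted p = 0.554). Npc1 was 22.3, 20.2 and 21.2 RPKM in AOS, again above each Con mouse (0.46, adjusted p = 0.627). All but 5 of the 34 estimates were positive, with a median of 0.15 against 0.06 for all genes.

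The second comparison of streptozotocin, STZ+AOS against AOS, used mice that STZ against Con did not. It called 10 members higher and 1 lower (32.4% of members, against 37.9% of all genes called, 31.8% higher and 6.11% lower), so the share was near the background. The median of the members was 0.17, below the 0.21 of all genes. After median-ratio scaling 6 members were higher and 5 lower, beside 24.5% of all genes, 12.2% higher and 12.3% lower. The mice did not overlap for 11 members above AOS and 2 below, beside 40.5% of all genes above and 49.1% in either direction.

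Ctsl was 1422, 702 and 2734 RPKM in the STZ+AOS mice and 363, 264 and 295 RPKM in the AOS mice (2.19, SE 0.397, adjusted p = 0.00104). Npc1 was 42.8, 59.6 and 47.2 RPKM in STZ+AOS (1.18, adjusted p = 0.000343), and Psap was 201, 205 and 211 RPKM against 138, 134 and 136 RPKM (0.59, adjusted p = 0.00202). In all 3 genes each STZ+AOS mouse exceeded each AOS mouse. Ctsd, Scarb2, Idua, Ctsf, Hexa, Ctsz and Gaa were the other members called higher, with changes of 0.42 to 0.66. Of 18 fits that each left out 1 mouse, Gaa and Hexa were not called in 4 each and Ctsz in 3. Without STZ+AOS mouse 3 the changes of Gaa and Hexa were 0.29 and 0.33. Lipa was 63.7, 71.7 and 61.0 RPKM in STZ+AOS and was the only member called lower (-0.46, SE 0.131, adjusted p = 0.0138). The AOS mice had the highest group mean of Lipa.

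Called higher in both comparisons of streptozotocin were 9 members: Npc1, Psap, Ctsl, Ctsd, Ctsf, Gaa, Idua, Hexa and Scarb2. These were 26.5% of the members, beside 22.9% of all genes higher in both. They made up 50% of the members higher in STZ against Con and 90% of those higher in STZ+AOS against AOS, where the like shares over all genes were 69.2% and 71.8%. The estimates had the same sign for 28 of 34 members. A test of the difference between both effects called 0 members (0% of all genes), with 3 at an unadjusted p under 0.05, beside 584 of all 10822 genes. Of these 3 members Lipa had the smallest p (-0.61, SE 0.186, adjusted p = 0.856). STZ+AOS against STZ likewise called 0 members (0% of all genes, with 3 members and 657 of all 10822 genes at an unadjusted p under 0.05). The mice did not overlap for 1 member, below STZ, beside 4.08% of all genes above and 5.13% in either direction, and Ctsl differed by 1.00 with a 95% interval of 0.16 to 1.85 (adjusted p = 0.806).

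**Figure D4:**
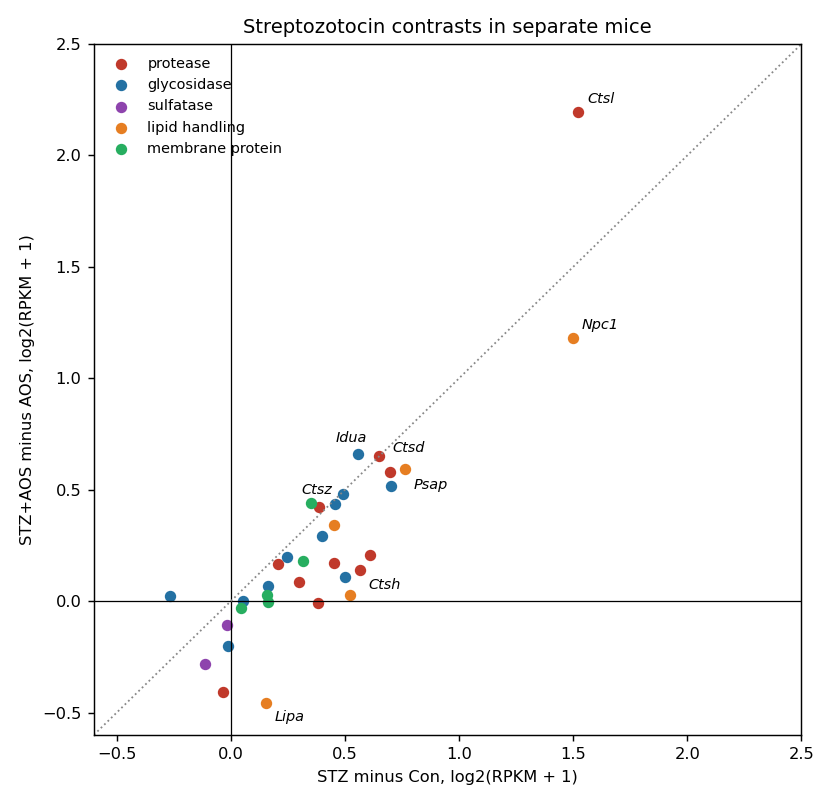
Change of each of the 34 genes in STZ against Con (horizontal axis) and in STZ+AOS against AOS (vertical axis), both in log2(RPKM + 1), coloured by role, with the line of equal change dotted. Ctsl (1.52 and 2.19) and Npc1 (1.5 and 1.18) lie far from the rest, and Lipa lies lowest at -0.46 on the vertical axis.

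**Figure D5:**
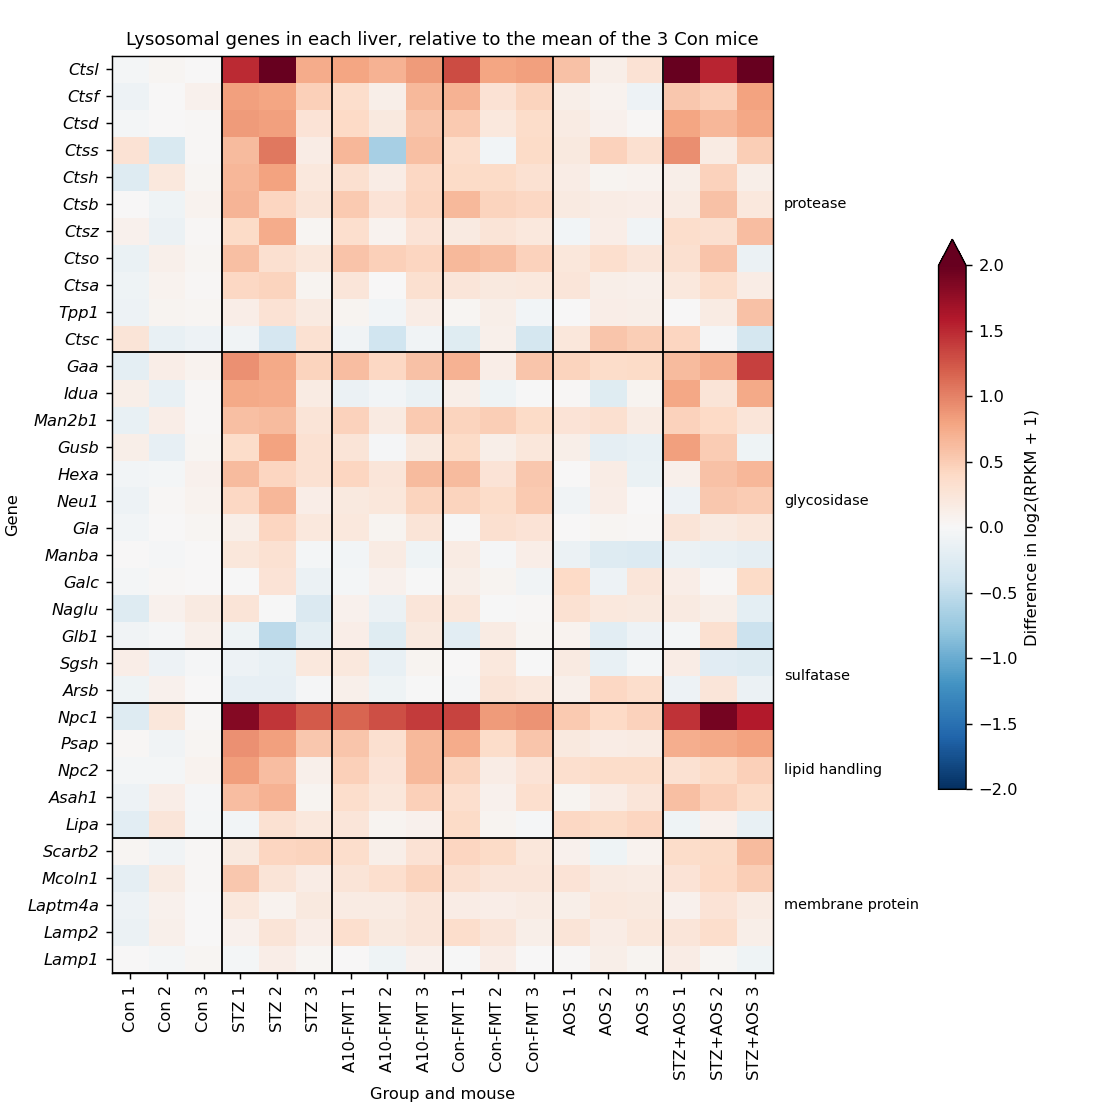
Difference of every mouse from the mean of the Con mice for the 34 genes, in log2(RPKM + 1), with genes grouped by role and colours ending at 2. The rows of Ctsl and Npc1 are darkest red in STZ and STZ+AOS, and the rows of Ctsl, Ctsd and Npc1 are paler in STZ mouse 3 than in the other STZ mice.

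The 5 members whose levels were most like those of Npc1 over the 18 libraries were Psap (Pearson r = 0.93), Ctsd (0.89), Mcoln1 (0.86), Ctsf (0.85) and Gaa (0.83). These libraries share the group differences and the shift of scale described above, so the correlations are descriptions. Ctsc had the lowest value, at -0.37, and Lamp1 was at -0.06.

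Lysosomal genes outside the 34 were read from lists. Of 23 tested other hydrolases and activators 10 were higher and 1 lower in STZ against Con, with a median of 0.27, and after median-ratio scaling 3 were higher and 2 lower. Plbd2, a phospholipase B-like protein, rose by 0.88 (adjusted p = 0.00218) and was also called after median-ratio scaling. Fuca1, the alpha-fucosidase, rose by 0.41 (adjusted p = 0.0116) and was not called after it. Of 17 tested other membrane proteins and transporters 4 were higher and 2 lower (median 0.18), or 2 and 3 after rescaling, led by Slc15a4, a histidine and peptide transporter of the endolysosome, at 1.75 (adjusted p = 0.00268) and by Cd63, a tetraspanin of late endosomes, at 1.81 (adjusted p = 0.00494).

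The machinery that builds the organelle was mixed. Of 17 V-ATPase subunits 7 were higher and 1 lower in STZ against Con (median 0.26), or 2 and 2 after median-ratio scaling. Atp6v1b2 rose by 0.84 (adjusted p = 0.000471), and Atp6v0e2 fell from 3.07 ± 0.331 to 1.15 ± 0.323 RPKM (-0.92, adjusted p = 0.00133). Of 16 genes of mannose 6-phosphate tagging and sorting 5 were higher and 1 lower (median 0.24), or 3 and 2 after rescaling. Igf2r, the large mannose 6-phosphate receptor, rose by 0.46 (adjusted p = 0.00531), Cln8, which helps enzymes leave the endoplasmic reticulum, rose by 1.13 (adjusted p = 0.000751), and Sort1, a sorting receptor, fell by 1.08 (adjusted p = 0.00519). Of 16 genes of the TFEB family and its regulators 8 were higher and none lower (median 0.26), whereas 2 were higher and 3 lower after rescaling. Flcn and Fnip1, which form a complex that controls TFEB through mTORC1, rose by 0.83 (adjusted p = 0.00264) and 0.88 (adjusted p = 0.00121), and Mtor by 0.42 (adjusted p = 0.00232), the last not being called after median-ratio scaling. Among all genes 33% were higher and 5.52% lower, or 14% and 13.3% after rescaling.

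Markers of the cells a liver holds were read beside the members. Hepatocyte markers summed to 37177 to 58689 RPKM over the 18 libraries, with 3 of 10 higher and 3 lower in STZ against Con. The 12 Kupffer cell and macrophage markers had summed levels of 132 to 200.4 RPKM in Con mice and 195 to 384 in STZ mice. The sums were 99.1 to 273 RPKM in A10-FMT, 156 to 241 in Con-FMT, 165 to 227 in AOS and 214 to 308 in STZ+AOS. None was at 0 in a whole group, and 3 of 12 were higher in STZ against Con (Marco, Cd163 and Timd4) with none lower, beside 33% of all genes higher, and Marco alone was called after median-ratio scaling. The median change of these 12 markers was 0.58, beside 0.21 for all genes. Against STZ their median was -0.49 in A10-FMT and -0.35 in Con-FMT, beside -0.05 and -0.03 for all genes, with 0 called in either. The summed levels of Con and STZ mice overlapped. Of 4 tested monocyte and neutrophil markers Lyz2 was higher (1.06, adjusted p = 0.0234) and S100a9 lower (-1.06, adjusted p = 0.0498), with a median of -0.44, and Lyz2 was not called after rescaling (adjusted p = 0.0754). The part of these cells in the result was not tested. Of 7 stellate cell markers 1 was higher (Dcn, 0.72, adjusted p = 0.0178) and of 8 endothelial markers 2 were (Kdr and Pecam1), while the lymphocyte markers summed to at most 3.22 RPKM in any library and could not be tested.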

How the data were processed

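From oligo(dT)-selected RNA of 18 livers the authors obtained Illumina reads, aligned them and deposited RPKM, 1 value per gene and library. Their methods name SOAPaligner, whereas the submitters' processing notes name Bowtie 0.12.2 and mm10. Strand was not given in the sources used here, and 9 of 34 members overlap another coding gene. Read depth is not part of RPKM. Values moved in whole steps (within 13%) in 38 of 10479 genes examined and gave relative depths of 0.954 to 1.06, a rough estimate, since choosing genes with like steps favours like depths.

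A gene entered the test where 3 or more libraries reached 1 RPKM. A pseudocount of 1 preceded log2, and limma 3.58.1 (R 4.3.3) estimated a mean per group, with moderated variances that follow expression (trend), two-sided tests and Benjamini-Hochberg adjustment. Con, STZ, A10-FMT and Con-FMT entered 1 model (12 libraries, 10602 genes), and comparisons with AOS or STZ+AOS a model of all 18 libraries (10822 genes). The procedure was run on simulated data with changes placed in a small part of the genes and no shift of scale between groups. That run therefore says nothing about calls under the shift described above. P-values rest on the spread between the 3 mice of a group, pooled for each gene over all groups of the model. Leaving out a mouse can thus change calls between groups that it was not in. The largest correlation between 2 libraries of a group was 0.996 and no libraries were identical.

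The members and lists were chosen with earlier results of these data known. Values of every mouse were given for the 12 members with the smallest and the 3 with the largest adjusted p in STZ against Con and for 4 more with the smallest in other comparisons (Lipa, Ctsb, Neu1, Ctsz); of each list, at most the 4 genes with the smallest adjusted p were named. Some results that this rule would name are not reported here. Promoters came from RefSeq (GRCm38.p6), gene starts from GENCODE M21. Alternatives were 3 scalings, a pseudocount of 0.1, 2 other filters, a variance prior without trend, other sets of libraries, stricter limits, a replicate block and leaving out each mouse.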

Additional observations from a re-analysis of the deposited data

How the results depend on the processing

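Scaling was the choice that moved most results, and the cause of the shift it removes was not tested. Values follow in the order median centring, median-ratio scaling, quantile normalization. The median change of the members became 0.14, 0.13 and 0.11 for STZ against Con. For the transplants it became 0.068, 0.049 and 0.015 (A10-FMT against Con) and 0.037, 0.036 and 0.013 (Con-FMT against Con). For AOS against Con it was 0.094, 0.080 and 0.062, and for STZ+AOS against AOS -0.083, -0.074 and -0.040. Members called numbered 8, 8 and 7 for STZ against Con, 1, 1 and 1 for A10-FMT against Con, 2, 2 and 1 for Con-FMT against Con, and 4, 5 and 3 higher in both streptozotocin comparisons. With median-ratio scaling calls over all 10602 genes fell too, from 4087 to 2893 for STZ against Con. For A10-FMT against Con they fell from 1953 to 1164, and for Con-FMT against Con from 2059 to 874. Against STZ they rose instead, from 24 to 95 for A10-FMT and from 1 to 73 for Con-FMT, with 0 members called in either. The share of all genes higher in both streptozotocin comparisons was not calculated for these scalings. The mean over the members per mouse was 0.15, 0.15 and 0.14 (STZ), 0.099, 0.077 and 0.051 (A10-FMT), 0.084, 0.080 and 0.062 (Con-FMT), 0.094, 0.085 and 0.080 (AOS) and 0.097, 0.11 and 0.13 (STZ+AOS). Uncalled estimates in STZ against Con turned negative for Galc (-0.19, -0.11 and -0.088), Lamp1 (-0.20, -0.22 and -0.19), Lamp2 (-0.085, -0.11 and -0.082), Laptm4a (-0.084, -0.10 and -0.14), Lipa (-0.092, -0.11 and -0.14), Manba (-0.081, -0.058 and -0.053) and Tpp1 (-0.039, -0.054 and -0.083).

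With only the compared groups in the fit, which leaves fewer mice to estimate the spread, 8 members were called for STZ against Con (23.5%, beside 25.7% of all genes), 12 for A10-FMT against Con (35.3%, beside 32.8%) and 5 in both streptozotocin comparisons. Without a filter 3 were called in A10-FMT against Con (8.82%, beside 8.07%). At an adjusted p of 0.001 and a log2 change of 1, Npc1 was the 1 member called in STZ against Con, in STZ+AOS against AOS and in both, and A10-FMT against Con and Con-FMT against Con had 0. In the 4 groups of the first model, deviations of mice with the same number had a mean correlation of 0.02 (from -0.25 to 0.48). For mice with different numbers it was -0.01 (from -0.54 to 0.43). Over all 6 groups the means were 0.04 and -0.02. These values were not tested and cannot exclude a pairing by number. With a replicate block Con-FMT against Con had 5 members called (14.7%, beside 13.7% of all genes). The other counts of members stayed within 1.5 times.

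Leaving out each mouse in turn gave 9 (without STZ mouse 1) to 21 members called for STZ against Con, 1 (without A10-FMT mouse 1 or Con mouse 1) to 12 for A10-FMT against Con, and 2 (without Con mouse 1) to 12 for Con-FMT against Con. At those lowest counts 30.2% of all genes were called for STZ against Con and 5.82% for Con-FMT against Con. For A10-FMT against Con the share was 8.18% without A10-FMT mouse 1 and 5.17% without Con mouse 1. Against STZ, leaving out a mouse gave 0 to 3 members for A10-FMT and 0 to 5 for Con-FMT. The highest count each time was without STZ mouse 3, where the share of all genes called was also higher (47.4% for STZ against Con, 25.2% for A10-FMT against Con and 26.6% for Con-FMT against Con). The median of the members ranged from 0.11 to 0.18 in AOS against Con and from 0.13 to 0.20 in STZ+AOS against AOS. Estimates near 0 changed sign for Ctsc (-0.20 to 0.11), Galc (-0.059 to 0.13), Naglu (-0.15 to 0.12) and Sgsh (-0.13 to 0.048). Depth was not known, so the sampling error of members near 1 RPKM (Galc, Sgsh, Gla and Idua) could not be calculated, and 3 mice a group limit what can be seen.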
